A study of Mus musculus with 9 samples.

Results

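NRF2, the transcription factor encoded by Nfe2l2, was followed here with its inhibitor gene Keap1 and 8 of its target genes in the livers of aged mice. The 10 genes were found by symbol among 27179 genes in the deposited table, and all 10 had enough signal to enter the fit across 12993 genes. The genes were chosen by name, with measured values of this contrast already known, among them that Nfe2l2 was lower in the sgCcnd1 livers. The difference between groups is therefore described for these 10 genes and not tested.

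Poly(A) RNA was sequenced from frozen liver pieces (m-lobe) of C57BL/6J mice that the labels call wild type. Every mouse was injected retro-orbitally at 17 months of age with 3e11 vector genomes of AAV8, and liver was taken 3 weeks later. The vector expressed the Cas9 of Staphylococcus aureus (saCas9) from TBG, a hepatocyte promoter, and a guide RNA from U6. Other liver cells, in which TBG is not active, also gave RNA to these whole-tissue libraries. The guide was directed at Rosa26, a locus often cut as a neutral control, in 4 mice (sgRosa26), or at the cyclin D1 gene Ccnd1 in 5 mice (sgCcnd1). Both groups thus received the virus and the nuclease. The table's columns name a guide but no replicate number, so the sgRosa26 libraries are called A to D in column order, and the sgCcnd1 libraries E to I.

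NRF2 switches on genes for glutathione synthesis, thioredoxin reduction, quinone detoxification and NADPH supply. Its activity is set mainly at the protein level: KEAP1 holds NRF2 for ubiquitination by a CUL3 ligase, and electrophiles or oxidants that modify KEAP1 let NRF2 accumulate. In the nucleus it pairs with a small MAF protein on antioxidant response elements. In liver the pathway guards against reactive drug metabolites and oxidative stress. These libraries measured transcripts only, so NRF2 protein and its location were not measured.

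Depth ranged from 10840595 to 20176201 reads assigned to genes per library. Library H of the sgCcnd1 group stood apart: 4 Y-linked transcripts summed to 2.00 normalized counts there, against 1619 to 2834 in the other 8 libraries. Ccnd1, the targeted gene, was at 684, 800.3, 625 and 867 normalized counts in libraries A to D and at 428, 347, 370.1, 339 and 325 in E to I. It fell by 1.03 on the log2 scale (SE 0.115, limma adjusted p = 0.0116), and all sgCcnd1 libraries lay below every control. Leaving out library B, D, F, H or I took the limma adjusted p of Ccnd1 above 0.05, to at most 0.0852 (without B) and to 0.0611 without H. Hepatocyte markers were abundant in all 9 libraries, with a summed level of 1685480 to 1979290 normalized counts in sgRosa26 and 1562140 to 2045500 in sgCcnd1.

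The core of the antioxidant response element, TGACNNNGC, was searched on both strands in RefSeq promoter windows of GRCm38.p6, each with 250 bases before and 50 after a gene's start. Windows were found for 8 of the 10 genes, 11 windows in all. Of these, 6 windows (54.5%) held at least 1 match, as did 12.4% of all 32851 windows. The matches that lie before or across the start are shown because NRF2 acts through this element. Many NRF2 targets are known as such through these elements, so the share of windows with a match is not independent of the choice of genes. Each is read 5′ to 3′ on the strand where the motif runs, with the motif in capitals.
Nfe2l2, chr2:75704885-75704913, minus strand: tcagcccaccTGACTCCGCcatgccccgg
Gclm, chr3:122245413-122245441, minus strand: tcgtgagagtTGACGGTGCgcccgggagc
Ugdh, chr5:65435956-65435984, minus strand: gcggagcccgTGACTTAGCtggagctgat
Ugdh, chr5:65435918-65435946, plus strand: ccgaactgtaTGACCACGCcccttgagga
Me1, chr9:86695902-86695930, minus strand: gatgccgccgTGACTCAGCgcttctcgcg
Txnrd1, chr10:82859104-82859132, minus strand: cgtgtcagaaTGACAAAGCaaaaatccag

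The motif of Me1 spanned the start, that of Nfe2l2 began 240 bases upstream, that of Gclm 134, those of Ugdh 132 and 94, and that of Txnrd1 92, each counted from the start its window was built on. For Gclm that start, 122245557, lies 70.0 bases downstream of the gene's first listed base. For Txnrd1 it is an alternative start, 82859206, 25255 bases downstream of that base, and the other 2 of its 3 windows, the one at the first listed base among them, held no match. One further match, in Srxn1, lay after the start. The windows of Nqo1 and Keap1 held no match, which says only that these letters are not in these windows. The first letters of the motif can overlap the binding motif of AP-1. A match is a description of sequence, not evidence of binding.

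Nfe2l2 (Entrez 18024; chromosome 2, 75675513 to 75704663) was lower in every sgCcnd1 liver than in any control. Its level was 2217, 2171, 2071 and 2297 normalized counts in libraries A to D. In libraries E to I it was 1673, 1684, 1484, 1578 and 1615. The groups did not overlap, and the gap between the lowest control (C) and the highest sgCcnd1 library (F) was wider than the range within either group. The means were 2189 ± 94.1 (SD, n = 4) and 1607 ± 80.9 (SD, n = 5), which puts sgCcnd1 at 73.4% of control, a log2 fold change of -0.45 (SE 0.072, 95% interval -0.60 to -0.29). Of all genes tested, 5.53% had a log2 fold change as low or lower. Without library H the log2 fold change of Nfe2l2 was -0.44.

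The spread of Nfe2l2 was small, with a coefficient of variation of 4.30% in sgRosa26 and 5.04% in sgCcnd1. It rested on 1138 to 2477 reads per library, for which counting error alone gives 2.01% to 2.96%. Fold changes here and below are differences of log2(normalized count + 1).

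**Figure D1:**
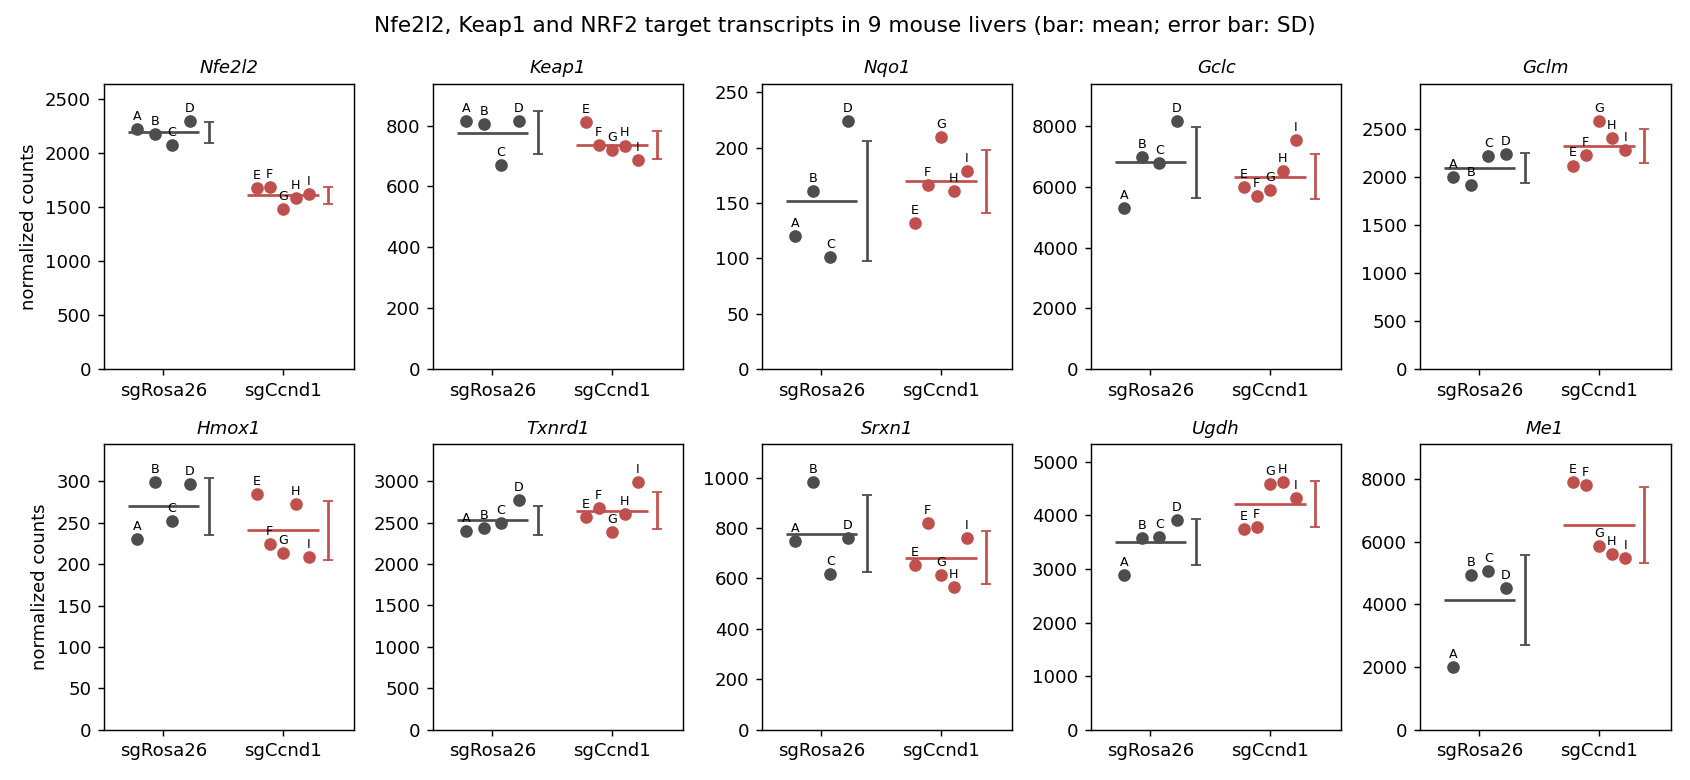
Normalized counts (y axes from 0) of the 10 genes in the 4 sgRosa26 (grey) and 5 sgCcnd1 (red) livers; letters name libraries, horizontal bars are means and error bars SD. Nfe2l2 separates the groups downward and Me1 upward, while the points of the other 8 genes overlap between groups.

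Keap1 (Entrez 50868; chromosome 9, 21229730 to 21239332), which encodes the sensor that targets NRF2 for degradation, differed little between groups. It was at 814, 806, 672 and 816 normalized counts in A to D and at 811, 735, 719.6, 735 and 685 in E to I. Library C was the lowest of the 9 and the other controls were close together, and the groups overlapped. The log2 fold change was -0.07 (SE 0.086, 95% interval -0.26 to 0.11), and sgCcnd1 stood at 94.9% of control. Leaving out 1 library moved it between -0.14 (without C) and -0.05 (without I).

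Gclc and Gclm encode the catalytic and modifier subunits of glutamate-cysteine ligase, the rate-limiting enzyme of glutathione synthesis. Gclc (Entrez 14629; chromosome 9, 77754535 to 77794489) was at 5324, 6981, 6797 and 8184 normalized counts in A to D and at 6007, 5707, 5917, 6515 and 7543 in E to I. Every sgCcnd1 value lay inside the range of the controls, and the log2 fold change was -0.10 (SE 0.125). Gclm (Entrez 14630; chromosome 3, 122245487 to 122267215) was at 2004, 1919, 2222 and 2236 in A to D and at 2121, 2226, 2587, 2404 and 2284 in E to I. For Gclm, 3 of 5 sgCcnd1 libraries (G, H and I) were above all controls, and none lay below the lowest control. Its log2 fold change was 0.15 (SE 0.084), so the estimates of the 2 subunits had opposite signs. The limma intervals of both included 0 (-0.37 to 0.17 for Gclc and -0.03 to 0.33 for Gclm).

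Thioredoxin reductase 1, encoded by Txnrd1 (Entrez 50493; chromosome 10, 82833951 to 82897724), keeps thioredoxin reduced with NADPH. Txnrd1 was at 2400.1, 2433, 2497 and 2778 normalized counts in A to D and at 2572, 2674, 2383, 2607 and 2996 in E to I. The groups overlapped, with library I highest and G lowest of the 9, and the log2 fold change was 0.07 (SE 0.085). Srxn1 (Entrez 76650; chromosome 2, 152105524 to 152111376) encodes sulfiredoxin, which repairs overoxidized peroxiredoxins. Srxn1 was at 749, 984, 619 and 760.4 in A to D and at 654, 819, 614, 565 and 759 in E to I. Its log2 fold change of -0.18 (SE 0.140) was the lowest of the targets, with a 95% interval of -0.49 to 0.12.

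Nqo1 and Hmox1 are widely used readouts of NRF2 activity and were the least abundant of the 10 genes in reads. Nqo1 (Entrez 18104; chromosome 8, 107388225 to 107403205) encodes a quinone reductase. It was at 120.5, 161, 101.4 and 224 normalized counts in A to D and at 132, 167, 209.5, 161 and 179 in E to I. All sgCcnd1 values fell within the control range, whose coefficient of variation was 35.8%, and the log2 fold change was 0.21 (SE 0.207). It was 0.04 without library C and 0.42 without library D. Hmox1 (Entrez 15368; chromosome 8, 75093618 to 75100593) encodes haem oxygenase 1, which degrades haem in hepatocytes and, strongly, in macrophages that take up red cells.

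Hmox1 was at 229.9, 299.8, 252 and 297 normalized counts in A to D and at 285, 225, 213, 273 and 209 in E to I. Libraries F, G and I were below all controls while E and H lay among them, and the log2 fold change was -0.17 (SE 0.126). Of 10 Kupffer cell and macrophage markers, 7 had a negative and 3 a positive log2 fold change. Their summed level ranged from 3113 to 4110.0 normalized counts in sgRosa26 and from 2867 to 3658 in sgCcnd1, and none was at 0 in any library. The log2 fold changes were -0.71 for Cd68, -0.35 for C1qa, -0.30 for C1qb, -0.25 for Vsig4 and -0.17 for Csf1r. They were -0.06 for Cd5l and Clec4f, 0.00 for Adgre1, 0.10 for Timd4 and 0.11 for Marco. The 3 positive signs leaned on sgCcnd1 library H, the highest of all libraries for Adgre1 (225 normalized counts), Timd4 (117) and Marco (376). At an unadjusted limma p under 0.05, 2 of the 10 (Cd68 and C1qa) were lower, beside 5.74% of all genes. Cd68, named after its value was seen as the lowest of the 10, was at 153 ± 25.0 and 93.9 ± 19.9 normalized counts (SD, n = 4 and 5; limma adjusted p = 0.245, DESeq2 adjusted p = 0.0265). In a whole lobe, fewer macrophages and less RNA per macrophage cannot be told apart, and the part of these cells in the Hmox1 or Nfe2l2 values was not tested.

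Ugdh and Me1 were the targets with the highest fold changes, in the direction opposite to Nfe2l2. Ugdh (Entrez 22235; chromosome 5, 65413207 to 65435842) encodes the enzyme that makes UDP-glucuronic acid for glucuronidation. It was at 2891, 3586, 3602 and 3914 normalized counts in A to D and at 3748, 3789, 4589.6, 4630.1 and 4323 in E to I. Libraries G, H and I were above all controls, E and F were not, and the log2 fold change was 0.27 (SE 0.106, 95% interval 0.04 to 0.50). Without library A it was 0.18.

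Me1 (Entrez 17436; chromosome 9, 86581363 to 86695914) encodes cytosolic malic enzyme, which makes NADPH and is also a gene of the lipogenic programme. It was at 2009, 4923, 5059 and 4517 normalized counts in A to D and at 7915, 7797, 5851, 5611 and 5473 in E to I. All 5 sgCcnd1 libraries were above all controls, E and F most so, and library A was far below the other controls. The means were 4127 ± 1430.7 (SD, n = 4) and 6529 ± 1219 (SD, n = 5), a log2 fold change of 0.73 (SE 0.243, 95% interval 0.21 to 1.26). Without library A the log2 fold change of Me1 was 0.42, with the same sign.

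Side by side, the target estimates had mixed signs. Of the 8 targets, 3 had a negative log2 fold change (Gclc, Hmox1 and Srxn1) and 5 a positive one (Nqo1, Gclm, Txnrd1, Ugdh and Me1), with a median of 0.11 against 0.01 for all genes tested. The limma interval included 0 for 6 of the 8 targets, so the signs of these 6 are not settled. The intervals of Ugdh (0.04 to 0.50) and Me1 (0.21 to 1.26) excluded 0, and both estimates were positive. The signs of all 10 genes were the same in all 20 alternative fits, other scalings among them, but these fits reused the same libraries. Single libraries moved some sizes widely. Gclc lay between -0.21 (without A) and -0.0036 (without D), and Srxn1 between -0.29 (without C) and -0.06 (without B). Txnrd1 lay between 0.02 (without I) and 0.11 (without D), and was at 0.0056 with quantile normalization.

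**Figure D2:**
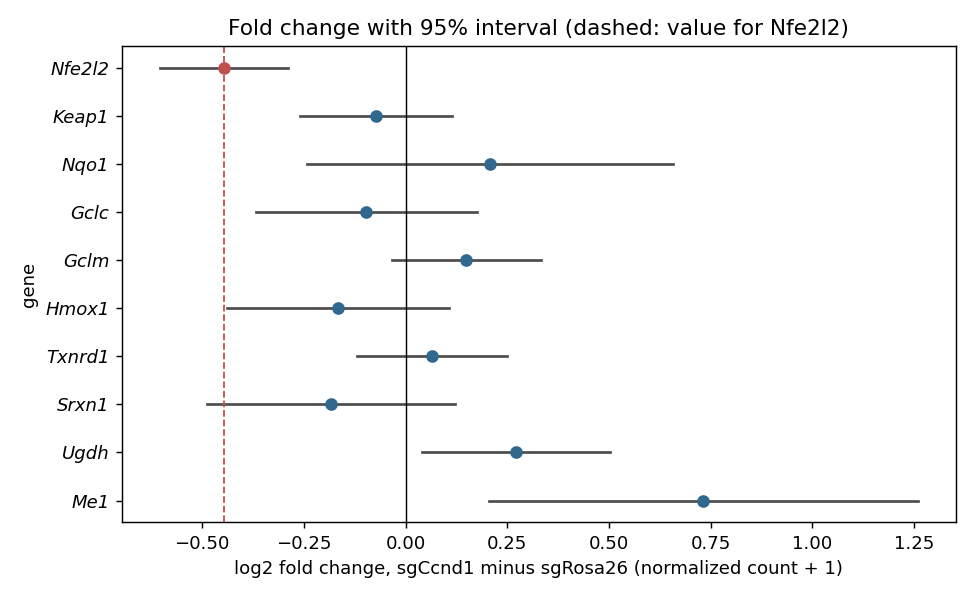
Log2 fold change (x axis, sgCcnd1 minus sgRosa26) of each of the 10 genes (y axis), with points for estimates and lines for 95% intervals from limma. The dashed line marks -0.45, the value of Nfe2l2; the target estimates run from -0.18 (Srxn1) to 0.73 (Me1).

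In the limma fit, 0 of the 10 genes passed an adjusted p of 0.05 in either direction, and 0.0077% of all genes did. At an unadjusted p under 0.05, limma had 1 of the 10 lower, beside 5.74% of all genes, and 2 higher, beside 5.22%. The edgeR model called 0 of the 10 (0.0077% of all genes), and DESeq2 called 1, Nfe2l2, beside 0.976% of all genes. No overlap between groups was seen for 1 gene lower in sgCcnd1 (1.97% of all genes) and 1 higher (1.92%). Since the genes were chosen with this contrast known, nothing is read from these counts.

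Whether the genes moved with Nfe2l2 from animal to animal was examined inside the groups, where the difference between groups plays no part. Each library's deviation from its group mean was taken on the log2 scale, and libraries were permuted within groups (exact permutation test, 2880 arrangements, two-sided, 9 libraries). Deviations of Nfe2l2 spanned only -0.11 to 0.07, so there was little variation to follow. Keap1 had the highest coefficient, with Pearson's r = 0.61 (exact permutation p = 0.0920) and Spearman's rho = 0.72 (exact permutation p = 0.0490). Adjusted over the 9 genes by the Benjamini-Hochberg method, these became 0.469 and 0.441.

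Gclm had the lowest coefficient, with Pearson's r = -0.58 (exact permutation p = 0.137, adjusted 0.469) and Spearman's rho = -0.37 (exact permutation p = 0.372, adjusted 0.836). Pearson's r was 0.53 for Txnrd1, 0.50 for Srxn1, 0.33 for Hmox1, 0.12 for Nqo1, 0.09 for Gclc, 0.08 for Me1 and -0.44 for Ugdh. Spearman's rho of these 7 was 0.47, 0.55, 0.08, 0.13, 0.08, -0.07 and -0.28 in the same order. In all, 7 of 9 coefficients were positive, but 4 of 9 with quantile normalization and 4 of 9 without library D. After adjustment 0 passed, the adjusted exact permutation p of Pearson's r ranging from 0.469 to 0.846.

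Libraries C and G were the 2 farthest from the median Nfe2l2 deviation. Over the other 7 libraries, r moved toward 0 for 5 genes, to 0.38 for Keap1, 0.24 for Txnrd1, 0.13 for Srxn1, 0.00 for Hmox1 and -0.30 for Ugdh. It moved away from 0 for Me1 (0.36) and Nqo1 (0.18) and changed sign for Gclm (0.03) and Gclc (-0.05). Single libraries moved several of the 9 coefficients. Without library D, r was -0.91 for Gclm, -0.80 for Ugdh, -0.33 for Nqo1 and -0.24 for Gclc. Without library G it was -0.28 for Gclm and 0.56 for Nqo1. With quantile normalization r of Gclm was -0.83. A p above the threshold over 9 animals does not show that the genes moved independently of Nfe2l2.

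**Figure D3:**
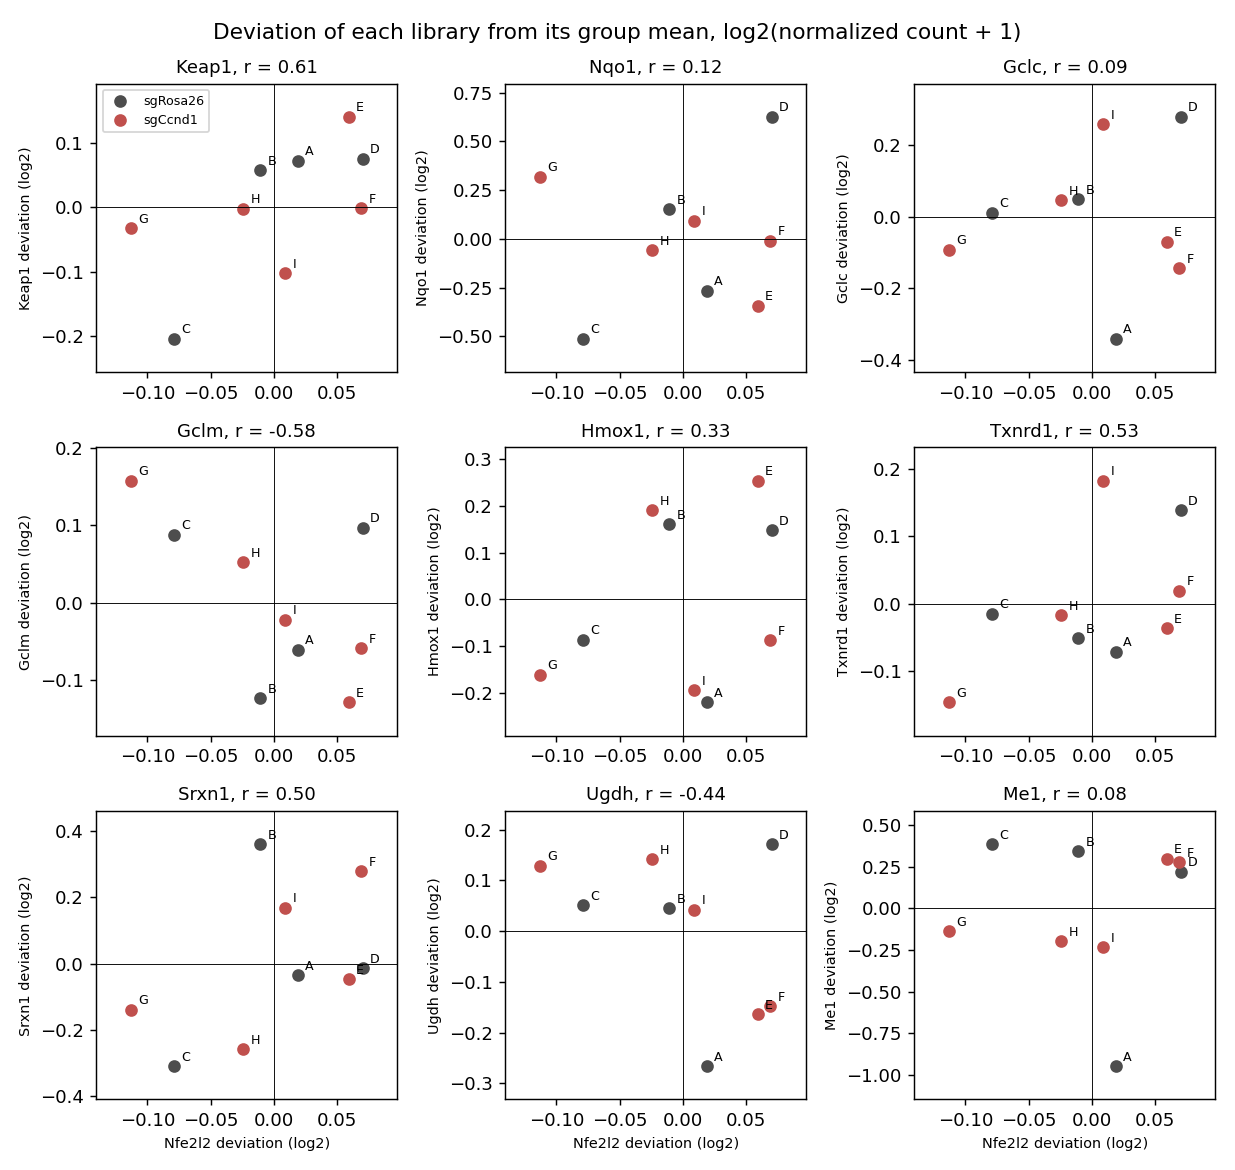
Deviation of each library from its group mean in log2 units, Nfe2l2 on the x axes and 1 of the other 9 genes on each y axis, for sgRosa26 (grey) and sgCcnd1 (red) libraries named by letter. Keap1 has the highest r, 0.61, and Gclm the lowest, -0.58, and libraries C and G lie at the low end of Nfe2l2.

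The wider pathway was read from 61 further genes in 5 lists, chosen for their roles, of which 57 could be tested. In limma, 0 of the 57 passed an adjusted p of 0.05 over all genes in either direction, and the smallest adjusted p was 0.113. At an unadjusted p under 0.05, limma had 1 lower (5.74% of all genes) and 6 higher (5.22% of all genes). The edgeR model called 0, beside 0.0077% of all genes, and DESeq2 called 1, the cell cycle inhibitor gene Cdkn1a, beside 0.976%. Positive log2 fold changes were seen in 41 of the 57 (71.9%), against 52.9% of all genes tested, with medians of 0.07 and 0.01. The lead over all genes was smaller with quantile normalization (32 of 57, 56.1% against 52.0%) and without library A (34 of 58, 58.6% against 51.1%). It was also smaller without library C (63.8% against 52.5%) or I (63.2% against 53.9%). Without library B (75.4% against 51.8%) or D (78.9% against 54.5%) it was larger. With a minimum mean of 100, 39 of 51 (76.5%) were positive, against 59.9% of all genes.

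Among 17 tested genes for NRF2 relatives, partners and regulators, 12 had a positive log2 fold change, with a median of 0.09. That median was 0.02 without library A, 0.03 without C and 0.03 without G, and 9 of 17 were positive with a median of 0.05 after rescaling to the 75th percentile. Cdkn1a, whose product p21 can bind NRF2 and compete with KEAP1, was at 592 ± 235 normalized counts in sgRosa26 and 179 ± 51.2 in sgCcnd1 (SD, n = 4 and 5). Its log2 fold change was -1.69 (SE 0.250, limma adjusted p = 0.113; DESeq2 adjusted p = 5.26e-08), with all 5 sgCcnd1 libraries below all controls. Nfe2l1, the related factor NRF1 that controls proteasome genes, was at 1819 ± 162 and 2107 ± 103 normalized counts. For Nfe2l1 all 5 sgCcnd1 libraries were above all controls, with a log2 fold change of 0.21 (SE 0.081, limma adjusted p = 0.368).

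Other genes of this list, Cul3, Sqstm1 and Bach1, whose products act on KEAP1 or NRF2 had values that did not pass in limma, edgeR or DESeq2. Cul3, the scaffold of the KEAP1 ligase, differed by 0.17 on the log2 scale (limma adjusted p = 0.599). Sqstm1, whose product p62 draws KEAP1 into autophagy, differed by 0.09 (limma adjusted p = 0.765). Bach1, a repressor that competes with NRF2 for its sites, differed by 0.23 (limma adjusted p = 0.484), with 3 of 5 sgCcnd1 libraries above all controls. These 3 were named after their values were seen.

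The 5 NADPH genes had positive log2 fold changes, with a median of 0.17 and 0 past the threshold in limma. In the fits without library A, without library F and with quantile normalization 4 of 5 were positive, with medians of 0.10, 0.13 and 0.07. G6pdx, which opens the pentose phosphate pathway, was at 160, 209, 276 and 169 normalized counts in A to D and at 431, 363, 253, 187 and 203 in E to I. Only libraries E and F, those with the highest Me1, were above all controls for G6pdx (log2 fold change 0.45, limma adjusted p = 0.516). Tkt, a transketolase of the same pathway, differed by 0.21 on the log2 scale (limma adjusted p = 0.452), with 4 of 5 sgCcnd1 libraries above all controls and library H below them.

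Of the 5 glutathione and thioredoxin genes that could be tested, 4 had positive values with a median of 0.13. That median was 0.04 without library A, 0.07 without C, 0.22 without D and 0.03 with quantile normalization. The peroxiredoxin gene Prdx1 differed by 0.21 on the log2 scale (limma adjusted p = 0.566) and the glutathione synthetase gene Gss by -0.12 (limma adjusted p = 0.671). Slc7a11 and Gpx2, NRF2 targets for cystine import and peroxide removal, had means under 3 normalized counts in both groups and were not tested.

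Detoxification and export genes split, with 15 of 23 positive and a median of 0.05. That median was negative in 5 of 21 fits, among them quantile normalization (-0.02, 9 of 23 positive) and the fits without library A, C or I (-0.01 each). It rose to 0.12 without library D (19 of 23 positive), 0.11 without B and 0.09 without E. The UDP-glucuronosyltransferase genes Ugt1a6a and Ugt1a6b had log2 fold changes of 0.36 and 0.41 (limma adjusted p = 0.308 and 0.306), each with 3 of 5 sgCcnd1 libraries above all controls. These genes share exons in 1 cluster, so their reads may not be separable. Among 7 iron, haem and other targets 5 were positive, with a median of 0.11 (4 of 7 and 0.04 with quantile normalization). Ftl1, the ferritin light chain, differed by 0.51 on the log2 scale (limma adjusted p = 0.344) and Pir by 0.24 (limma adjusted p = 0.438). Ftl1 has many processed copies in the genome, and how their reads were assigned is not given in the sources used here. Some targets had log2 fold changes about as low as Nfe2l2. They were Osgin1 at -0.51 (limma adjusted p = 0.494, 2 of 5 sgCcnd1 libraries below all controls) and the glutathione transferase gene Gstm3 at -0.44 (limma adjusted p = 0.457, 1 of 5). These 2 were named after their values were seen. In A to D, Osgin1 was at 2243, 3267, 4065 and 5335 normalized counts and Gstm3 at 922, 2221, 1080 and 1479. A single high control, D for Osgin1 and B for Gstm3, thus weighed on each size.

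**Figure D4:**
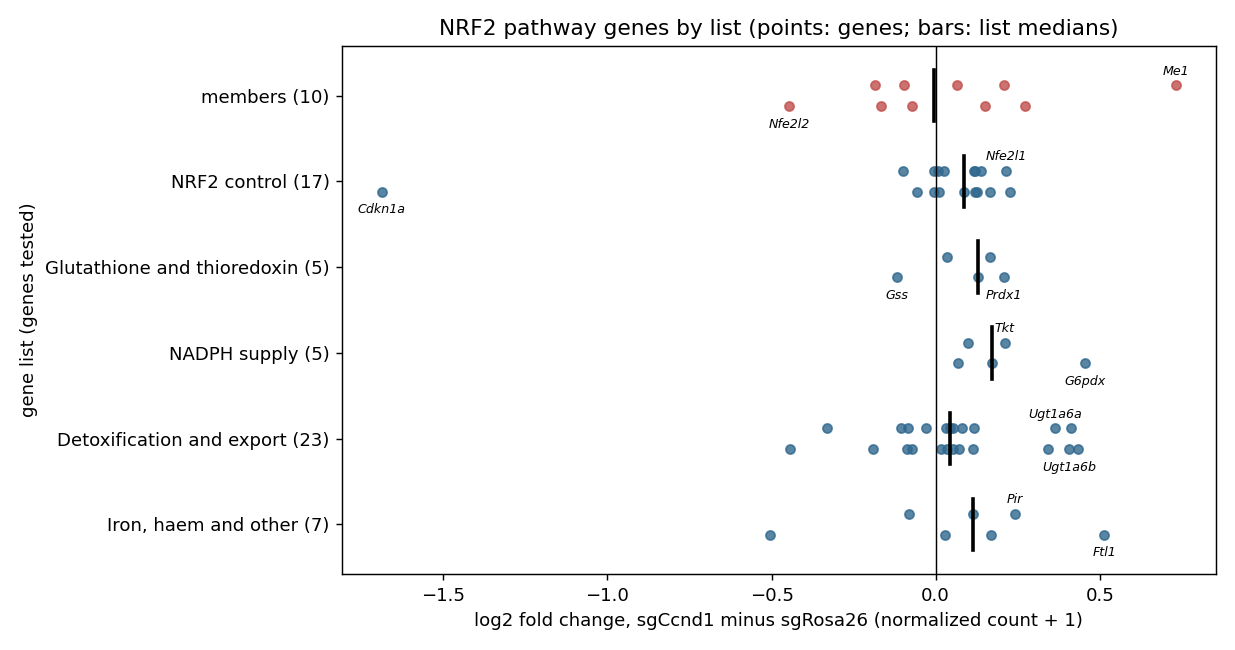
Log2 fold changes (x axis) of the 10 chosen genes (red) and of 57 further NRF2 pathway genes (blue) in 5 lists (y axis, genes tested in brackets); black bars are list medians. The medians of the 5 lists lie between 0.05 and 0.17, and Cdkn1a at -1.69 is the point farthest from 0.

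The genes whose levels across the 9 libraries were most like Nfe2l2 were taken from 10350 named genes whose mean reached 50 normalized counts. By Pearson's r of log2 levels they were Csf2ra (0.97), Ccnd1 (0.96), Desi2 (0.95), Tomm34 (0.94) and Cdkn1a (0.94). Csf2ra, which encodes a receptor chain for GM-CSF on myeloid cells, was at 127 ± 5.17 and 84.9 ± 8.56 normalized counts (SD, n = 4 and 5). Desi2 encodes a deSUMOylating peptidase and Tomm34 a co-chaperone of mitochondrial protein import. In none of these 5 genes did the groups overlap, so the coefficients hold the same step between groups as Nfe2l2 and are given as a description.

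The most opposite patterns were those of Paics (r = -0.96), Pcca (-0.96), Pccb (-0.95), Ptges3 (-0.94) and Vcp (-0.94), all higher in each sgCcnd1 library than in any control. Paics encodes an enzyme of purine synthesis, Pcca and Pccb the 2 subunits of propionyl-CoA carboxylase, Ptges3 the HSP90 co-chaperone p23 and Vcp the segregase p97. Pcca was at 948 ± 50.2 and 1231 ± 49.7 normalized counts and Pccb at 2182 ± 105 and 2588 ± 53.2 (SD, n = 4 and 5). Of the other 9 genes of the pathway, Srxn1 came nearest to Nfe2l2 at rank 1163 of 10350, and Ugdh lay farthest from it at rank 9981. These ranks also hold the step between groups, so they do not show how the genes moved with Nfe2l2 within groups.

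Single animals also stood out across these genes. Library A held the lowest level of the 9 for Gclc, Ugdh and Me1, and library D the highest for Nfe2l2, Keap1, Nqo1 and Gclc. Library A had 12249127 reads; only library I had fewer. All 6 B and T cell markers tested and all 3 neutrophil markers tested had negative log2 fold changes, with 0 past the threshold in limma, edgeR and DESeq2 and, at an unadjusted limma p under 0.05, 3 and 1 lower, where 5.74% of all genes were. Their summed levels were 123 to 231 and 122 to 207 normalized counts in sgRosa26, and 56.8 to 215 and 79.0 to 128 in sgCcnd1. The B and T cell sum overlapped between groups only through library E, and the neutrophil sum only through library G. All other sgCcnd1 libraries lay below every control in these sums. The part of these cells in the results above was not tested.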

How the data were processed

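The deposited table holds 1 column per library of a signal that its name calls normalized counts. Per the submitters' processing notes, Trim Galore 0.6.7, HISAT2 2.2.1, featureCounts 2.0.3 and DESeq2 2.11.40.8 were used with mm10 (GRCm38); annotation and strand setting are not given in the sources used here. In each column 100% of the values above 0 were whole multiples of 1 number (within 0.1 read), so the deposited signal equals reads divided by a size factor. The columns carry no replicate numbers; p-values measure the spread between these samples.

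Values were put on a log2(normalized count + 1) scale, and the 12993 genes averaging 10 or more were tested. Groups were compared with limma 3.58.1 (R 4.3.3), with an intensity trend, no covariates, two-sided, adjusted over all genes by Benjamini-Hochberg with a threshold of 0.05. Alternatives were pseudocounts 0.1 and 10, no minimum or a mean of 100, quantile normalization, rescaling to the 75th percentile, robust eBayes, leaving out each library, and edgeR 4.0.16 and DESeq2 1.42.0 on recovered reads. Both count models were also run without library H, which stands apart in its Y-linked transcripts, a choice made after seeing the data. On simulated counts the fits recovered fold changes without bias but missed part of the 2-fold changes, more than a first criterion allowed, so that criterion was replaced by checks of bias and of false calls. DESeq2 made more false calls there than its threshold allows, and the check of false calls was applied to limma and edgeR. A count of 0 called therefore does not show that no gene differed.

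The genes and lists were chosen with earlier results of these data known. Named were the 10 genes, Ccnd1, in each of 5 lists the genes past the threshold or else the 2 with the smallest p and a mean of at least 50, and the 5 genes most like and most opposite to Nfe2l2. Gene coordinates are from RefSeq on GRCm38.p6. Markers of 8 kinds were summed. Endothelial (4 of 6 negative), stellate (5 of 6), cholangiocyte (3 of 5), acute-phase (4 of 8) and hepatocyte (4 of 8) lists had 0 genes past the limma threshold, which 0.0077% of all genes passed. At an unadjusted limma p under 0.05, stellate (median log2 fold change -0.39) had 2 of 6 lower, Pdgfrb and Col1a1, and cholangiocyte (median -0.31) had 1 of 5 lower, Sox9, beside 5.74% of all genes; the other 3 lists had 0.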

Additional observations from a re-analysis of the deposited data

Results flagged for a closer look

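Keap1 in sgRosa26 library C, at 672 normalized counts, lay far from the other 3 controls, which were between 806 and 816. Its distance from the nearest value, as a share of the range of the controls, was 0.929, past a cutoff of 0.829. Of 20 groups of values examined for such a sample, this was the only one past its cutoff, and chance gives about 1 in 20. Me1 in sgRosa26 library A, at 0.822, came just short of it. Without library C the log2 fold change of Keap1 was -0.14 in place of -0.07.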

How the results depend on the processing

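No paired analysis was possible because no replicate number stands in the table's column names. Nfe2l2 kept its direction in all 20 alternatives, between -0.51 (quantile normalization) and -0.42 (without library G). The number of the 10 genes called lower was 0 in limma and edgeR and 1 (Nfe2l2) with DESeq2, also 1 with DESeq2 without library H. The number of further pathway genes called lower was likewise 0, and 1 (Cdkn1a) with DESeq2 and with DESeq2 without library H. The number called higher was 0 in all alternatives. Within groups, 0 of 9 genes passed after adjustment in all alternatives, the smallest adjusted exact permutation p being 0.0625 (Gclm, rescaling to the 75th percentile). Of all genes at an unadjusted limma p under 0.05, 52.4% were lower, against 67.3% after that rescaling and 37.5% with a minimum mean of 100. The cause of the gap between the tools was not tested. Leaving out 1 library moved Nqo1 between 0.04 (without C) and 0.42 (without D), and Me1 to 0.42 (without A). For Nqo1, with 98 to 231 reads per library, counting error alone is 6.58% to 10.1%.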
